A study of Mus musculus with 2 samples.

Results

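The genes described here handle iron in mouse gastrocnemius, a calf muscle made mostly of fast fibres. They are Hfe2, which encodes hemojuvelin and is also named Hjv, the ferritin genes Fth1 and Ftl1, the transferrin receptor gene Tfrc, the iron regulatory protein gene Ireb2, the ferritin cargo receptor gene Ncoa4 and the iron exporter gene Slc40a1. All transcript models that the deposited tables place in these 7 genes were taken, out of 15324 annotated mouse genes with reads in either library. They made up 39 of 58867 models in replicate 1 and 60 of 97558 models in replicate 2. The genes and the Hfe2 exon forms were chosen by their read counts in these libraries, with those values known, so their levels, the order of the levels and the shares of the Hfe2 forms are given as a description. Tests across all genes and all models, further down, compare only the 2 libraries with each other.

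A pair of long-read libraries was made from total RNA of gastrocnemius tissue, starting from 2 µg per library with 2 spike-in mixes added. Whether the 2 tissue samples were dissected alike is not known. Both came from female mice of strain B6CASTF1/J, the first-generation hybrid of C57BL/6J and CAST/EiJ, aged 36 days. No treatment is named, and both libraries belong to 1 group, so there is no control group and no comparison of conditions. The labels number the animals differently but place both tissue samples under 1 shared donor entry. The libraries were taken as separate animals, and differences between them may be technical.

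Replicate 1 held 797105 reads in annotated mouse genes and replicate 2 held 1602272. Levels are in CPM, counts scaled to the total of these reads, without scaling to gene length because each long read is counted once whatever its length. Any effect of transcript length on the counts was not tested. A single read corresponds to 1.25 CPM in the first library and 0.624 CPM in the second. The libraries stood apart in the muscle they represent. The 7 slow fibre markers fixed for the check had 23 reads in replicate 1, with Myh7, Myl2 and Myl3 at 0, and 14604 reads in replicate 2. The 4 muscle fibre markers Acta1, Ckm, Myh4 and Ttn summed to 176720 CPM in replicate 1, as the tissue label has it, and to 133520 CPM in replicate 2. Red cell markers summed to 2556 CPM and 554 CPM, with Slc4a1 at 0 reads in both. In whole tissue, fewer cells of a type and less RNA per cell cannot be told apart. Gene levels are therefore printed for each library, and the part of these differences in the results was not tested.

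Iron enters most cells as transferrin bound to the transferrin receptor, is stored inside ferritin cages of heavy and light chains, and leaves through ferroportin, the product of Slc40a1. When cellular iron is low, iron regulatory proteins bind short RNA hairpins called iron-responsive elements; binding in a 5′ UTR blocks translation, and binding in the 3′ UTR of the transferrin receptor mRNA protects it from decay. Hemojuvelin is a membrane-anchored co-receptor for bone morphogenetic proteins that raises hepcidin in the liver, and its mRNA is abundant in skeletal muscle as well as liver.

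The iron-responsive elements of the member transcripts are shown because they are where this regulation acts on the RNAs that were read. The search took the letters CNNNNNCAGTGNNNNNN on the gene's strand only, where the 5 bases before and after the 6-base loop had to pair, with G-T pairs allowed. Such a match stands in the annotated 5′ UTR of 0.146% of genes (31 of 21200) and in the 3′ UTR of 0.679% (144 of 21193). The 5′ UTRs of Fth1, Ftl1 and Slc40a1 held 1 match each, and the 3′ UTR of Tfrc held 4. The search found none in the annotated UTRs of Hfe2, Ireb2 or Ncoa4, which says only that these letters are not there. The matches are given 5′ to 3′ with the loop in capitals, from the GENCODE M21 transcripts on the GRCm38 (mm10) build. Here and in the sequences further down, the letters are those of the reference, and the CAST/EiJ alleles of the hybrid mice were not examined.
Fth1, chr19:9982733-9982759, plus strand: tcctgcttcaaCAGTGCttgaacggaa
Ftl1, chr7:45459780-45459806, minus strand: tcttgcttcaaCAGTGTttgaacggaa
Slc40a1, chr1:45925466-45925492, minus strand: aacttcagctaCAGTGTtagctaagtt
Tfrc, chr16:32631220-32631246, plus strand: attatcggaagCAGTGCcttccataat
Tfrc, chr16:32631599-32631625, plus strand: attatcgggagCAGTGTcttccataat
Tfrc, chr16:32631664-32631690, plus strand: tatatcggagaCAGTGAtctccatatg
Tfrc, chr16:32631711-32631737, plus strand: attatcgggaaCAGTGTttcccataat

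Fth1 was the highest of the 7 genes, with 2276 CPM in replicate 1, 3453 CPM in replicate 2 and a mean of 2864 ± 833 CPM (SD, n = 2). It ranked 33rd of all annotated genes by mean level. Hfe2 came next with 508 CPM and 447 CPM, a mean of 478 ± 42.9 CPM and rank 199. Ftl1 followed with 162 CPM and 200 CPM, a mean of 181 ± 27.2 CPM. With all models counted, these 3 genes had the same order in both libraries. The order of Hfe2 and Ftl1 turned with models matching an annotated transcript (class Known) alone, at means of 171 CPM for Hfe2 and 263 CPM for Ftl1. It also turned in replicate 2 when near copies of Ftl1 were added, as given with the ferritins.

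The other genes were below Ftl1 in both libraries. Tfrc had 17.6 CPM in replicate 1 and 45.6 CPM in replicate 2, and Ncoa4 had 33.9 CPM and 28.1 CPM. Their means, 31.6 ± 19.8 CPM and 31.0 ± 4.09 CPM, do not differ beyond their spread, and their order turned between the libraries. Slc40a1 had 13.8 CPM and 12.5 CPM, a mean of 13.1 ± 0.932 CPM, below both in each library. Ireb2 was lowest, with 3 reads (3.76 CPM) and 4 reads (2.50 CPM), which is at the level of 3 reads in replicate 1.

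**Figure D1:**
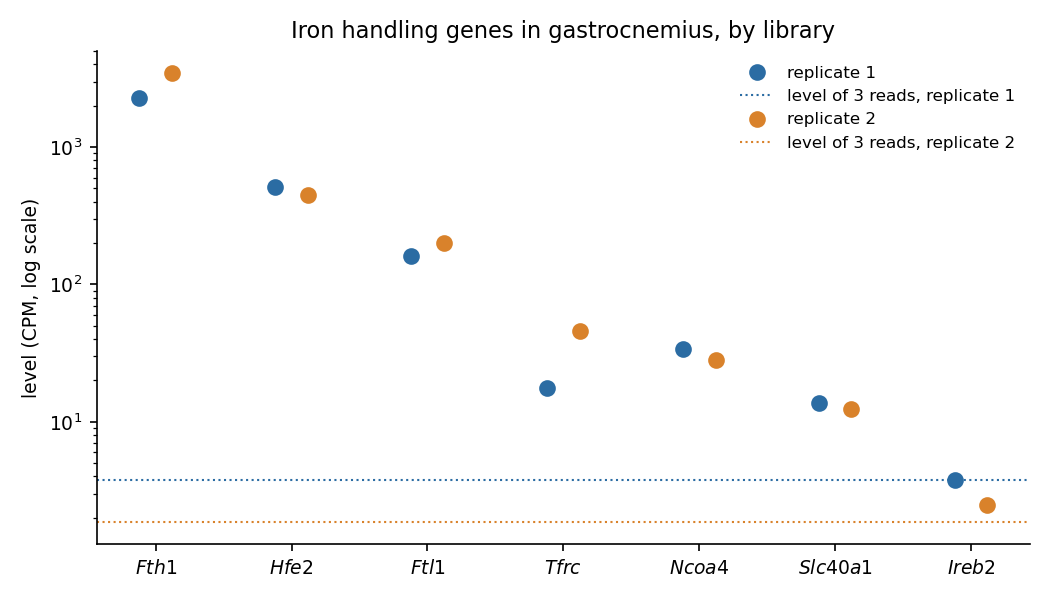
Level of each gene in CPM on a log scale, 1 point per library, replicate 1 left and replicate 2 right, with dotted lines at the level of 3 reads. With all models counted, Fth1, Hfe2 and Ftl1 have the same order in both libraries, Tfrc and Ncoa4 change places, and Ireb2 lies near the lines.

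Hemojuvelin. Hfe2 lies at chr3:96525172-96529210 on the plus strand (mm10). The M21 annotation gives it 1 transcript, Hfe2-201, of 4 exons and 2028 nt. Exon 1 (chr3:96525172-96525330, 159 nt) is all 5′ UTR, exon 2 (chr3:96526429-96526602) holds the start codon at position 96526515, and exons 3 and 4 hold the rest of the coding region. The coding part of exon 2 carries 6.97% of the coding region, stop codon included. It is printed because the exon forms keep or skip it, with the start codon in capitals.
Hfe2 exon 2, coding part, chr3:96526515-96526602, plus strand: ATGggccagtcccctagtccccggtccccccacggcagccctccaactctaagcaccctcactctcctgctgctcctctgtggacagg

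The annotated transcript was not the most used Hfe2 model. Models deposited as class NNC, with an unannotated splice site, took 180 reads (44.4%) in replicate 1 and 260 reads (36.3%) in replicate 2. Models of class ISM, which hold part of a listed chain, took 111 reads (27.4%) and 287 reads (40.0%). These classes do not follow the annotation alone, since in replicate 2 ISM also held chains with unannotated acceptors of exon 2 (4 reads and 1 read). A chain with an extra exon in intron 1 was classed NNC in replicate 1 (1 read) and otherwise, as NIC, in replicate 2 (5 reads). Hfe2-201 itself took 106 of 405 reads (26.2%) in replicate 1 and 153 of 717 reads (21.3%) in replicate 2. The most used model differed from it at 1 splice site. It ran from exon 1 to an acceptor at position 96526411, 18 nt upstream of the annotated acceptor of exon 2, and took 160 reads (39.5%) and 223 reads (31.1%). Of 3204 genes compared, 34 genes (1.06%) had the same model with an unannotated splice site as their most used one in both libraries, and Hfe2 was one of them. The median share of reads in annotated models over those genes was 81.0% in replicate 1 and 73.5% in replicate 2.

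The 5′ forms were compared among the reads spliced from exon 1, 296 in replicate 1 and 435 in replicate 2, since only these show the splice site joined to exon 1. Clopper-Pearson 95% intervals, which are exact, stand in parentheses and cover counting error within each library alone. No molecular identifiers mark separate molecules, so copies of the same molecule would count as separate reads and make the intervals too narrow. The form with exon 2 longer by 18 nt held 160 reads, 54.1% (48.2 to 59.8), in replicate 1 and 228 reads, 52.4% (47.6 to 57.2), in replicate 2. The annotated exon 2 held 109 reads, 36.8% (31.3 to 42.6), and 157 reads, 36.1% (31.6 to 40.8). The longer exon was the leading form in both libraries. Means over the libraries were 53.2 ± 1.16% and 36.5 ± 0.518% (SD, n = 2).

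Less used forms appeared in both libraries. An acceptor at position 96526352, 77 nt upstream of the annotated one, held 16 reads, 5.41% (3.12 to 8.63), in replicate 1 and 32 reads, 7.36% (5.09 to 10.2), in replicate 2. An extra exon within intron 1, starting at position 96525983, was found in 3 reads (1.01%) and 9 reads (2.07%). It was 104 nt long in 1 read of replicate 1 and 8 reads of replicate 2. The same start also opened an exon of 50 nt in 1 read of replicate 1, and an exon of 620 nt that ran through to the end of exon 2 in 1 read of each library. Exon 2 was skipped in 6 reads (2.03%) and 5 reads (1.15%), and exons 2 and 3 together in 2 reads (0.676%) and 4 reads (0.920%).

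**Figure D2:**
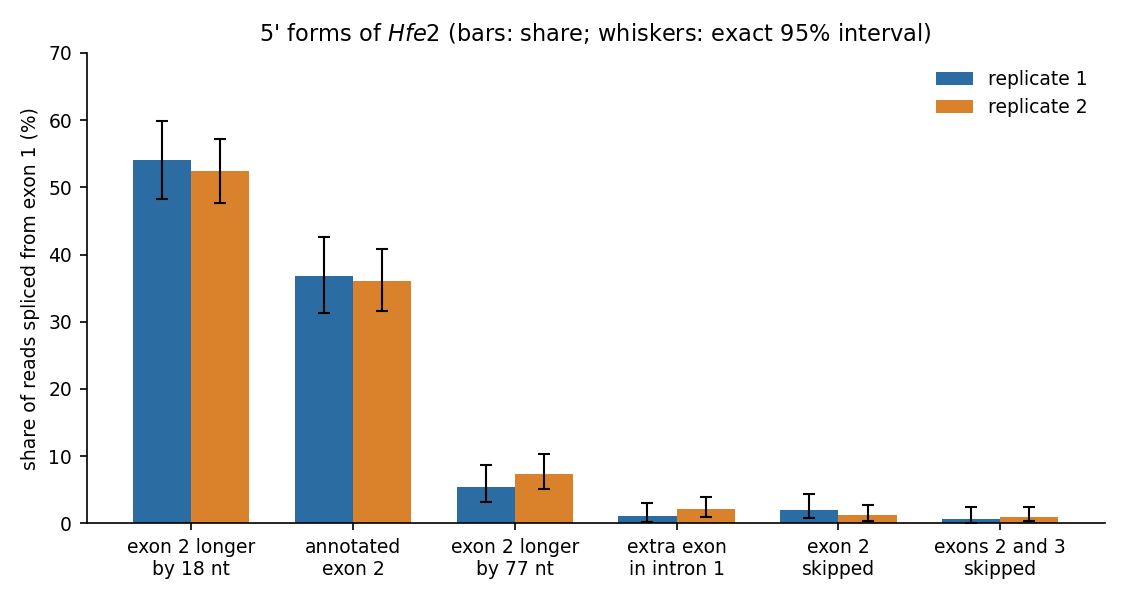
Share of Hfe2 reads spliced from exon 1 that held each 5′ form, in percent, with replicate 1 left and replicate 2 right in each pair; whiskers are exact 95% intervals. The form with exon 2 longer by 18 nt stands above the annotated one in both libraries, and the other 4 forms each stay below 10%.

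The 3 acceptors change the 5′ UTR and leave the annotated start codon and coding region in place. From the annotated start the 5′ UTR is 245 nt long with the annotated acceptor, 263 nt with the acceptor 18 nt upstream, and 322 nt with that 77 nt upstream. The annotated 5′ UTR holds 4 ATG triplets, all of them in exon 1, so they are shared by the 3 forms. The letters of the added 18 nt and 77 nt were not used here. Skipping exon 2 removes the annotated start codon. No other ATG in frame with it lies in exon 2, and the next stands in exon 3 at codon 107 of 420, shown in capitals.
Hfe2 exon 3, chr3:96527253-96527282, plus strand: atagaggacctgATGatccagcacaactgc

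The remaining Hfe2 reads were not spliced from exon 1, and most did not show their 5′ form. Reads spliced from exon 1 were 73.1% (68.5 to 77.3) of Hfe2 reads in replicate 1 and 60.7% (57.0 to 64.3) in replicate 2. Models that began in exon 3 held 62 reads (15.3%) and 182 reads (25.4%), a larger share in replicate 2. Unspliced models, which run through intron 3, held 34 reads (8.40%) and 71 reads (9.90%). Models that began at the annotated start and kept intron 1 held 12 reads (2.96%) in replicate 1 and 3 reads (0.418%) in replicate 2. Those that began in exon 2 held 1 read and 26 reads. Both groups hold the same intron chains and differ only in the start stored for each model. Together they held 13 reads (3.21%) in replicate 1 and 29 reads (4.04%) in replicate 2. Whether intron 1 was kept more often in either library therefore cannot be read from them. Each model has 1 start position in the files, and all models spliced from exon 1 begin at exactly the annotated start, so where single reads began is not known.

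The 3′ part of the gene varied less. Intron 3 was spliced at its annotated sites in 366 of 405 reads (90.4%) in replicate 1 and 626 of 717 reads (87.3%) in replicate 2, and was kept in 37 reads (9.14%) and 81 reads (11.3%). Most of those that kept it were the unspliced reads given above, 34 and 71. Only 3 reads (0.741%) in replicate 1 and 10 reads (1.39%) in replicate 2 kept intron 3 and were spliced upstream. The annotated start codon was held by 301 reads (74.3%) and 453 reads (63.2%). Hepatocyte markers were at or near 0, with 1 read of Alb in each library and no read of Apoa1, Ttr, Hamp or Serpina1a.

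**Figure D3:**
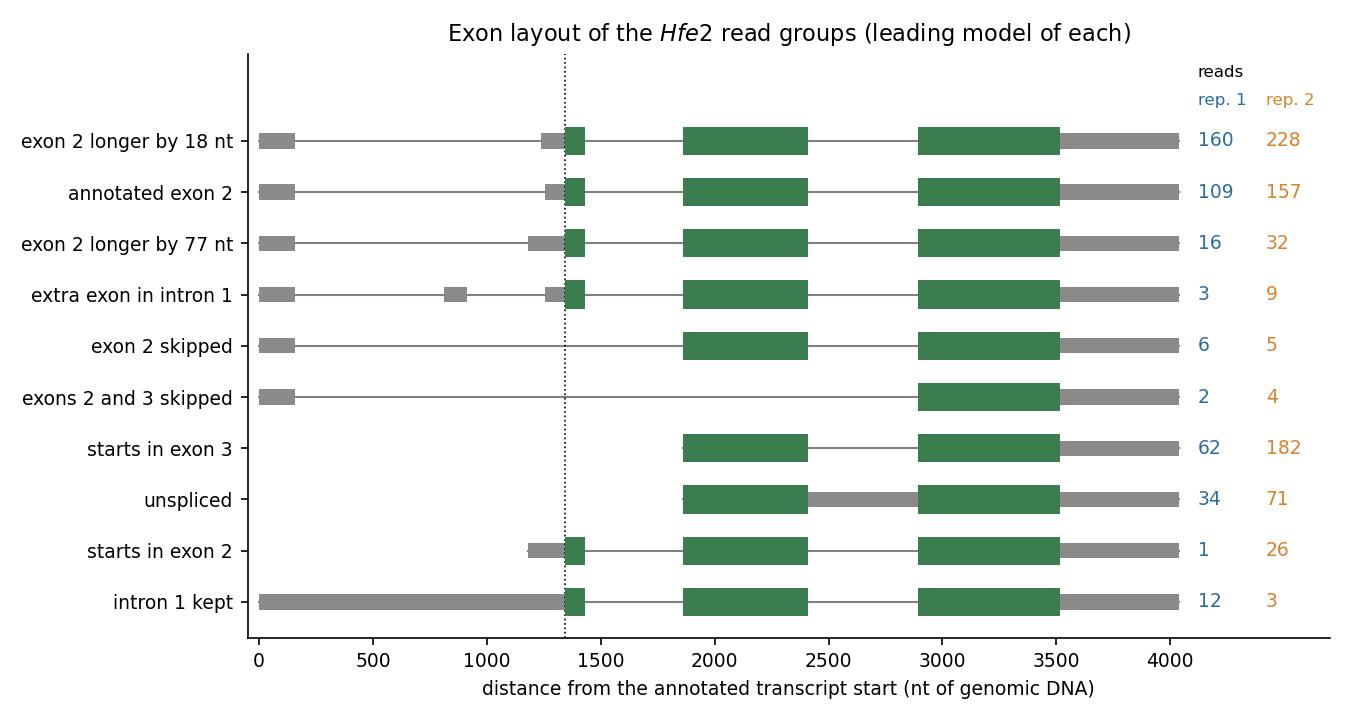
Exon layout of the Hfe2 read groups by distance from the annotated transcript start in nt of genomic DNA, with the leading model of each group, its reads in replicate 1 and replicate 2 at the right, and a dotted line at the start codon. Green marks the annotated coding positions and grey the other exon sequence; the longer forms of exon 2 add sequence upstream of the dotted line.

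Ferritins. Ferritin heavy chain, the product of Fth1, oxidises iron for storage, and the light chain, the product of Ftl1, helps to form the mineral core. Fth1-201 (chr19:9982646-9985098, plus strand, 4 exons, 929 nt) took 1778 of 1814 Fth1 reads (98.0%) in replicate 1 and 5366 of 5533 reads (97.0%) in replicate 2. Ftl1-201 (chr7:45457944-45459884, minus strand, 4 exons, 968 nt) took 126 of 129 Ftl1 reads (97.7%) and 300 of 321 reads (93.5%). Both genes were thus read almost wholly as their annotated first transcript, unlike Hfe2. An Fth1 model with exon 2 longer by 4 nt was listed with 0 reads in replicate 1 and 27 reads in replicate 2.

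Nearly all ferritin reads belonged to models that held the iron-responsive element. It lay within the models of 1805 of 1814 Fth1 reads (99.5%) in replicate 1 and 5411 of 5533 reads (97.8%) in replicate 2. For Ftl1 these were 127 of 129 reads (98.4%) and 302 of 321 reads (94.1%).

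Ftl1 has near copies in the genome, so its count is uncertain. Ftl1-ps1 on chromosome 13, a single exon of 938 nt that the annotation lists as protein-coding, shares 86.0% of its 25-nt words with Ftl1 and had more reads than Ftl1 itself. It was listed with 202 reads (253 CPM) in replicate 1 and 516 reads (322 CPM) in replicate 2. Of 3 other copies, Gm15590 had 4 reads and 1 read, Ftl2-ps had 2 reads in each library, and Ftl1-ps2 had none. With the copies added, Ftl1 came to 423 CPM and 524 CPM, below Hfe2 in replicate 1 and above it in replicate 2. Whether the alignment placed reads of 1 gene at the other was not tested. No copy sharing at least 50% of its words was found for Fth1.

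Transferrin receptor. Tfrc (Tfrc-201, chr16:32608920-32632794, plus strand, 19 exons, 4890 nt) had 14 reads in replicate 1 and 73 reads in replicate 2. The full-length annotated transcript took 8 reads and 17 reads. Single-exon models inside the last exon, which TALON classes as Genomic, took 2 reads and 48 reads, so 65.8% of the Tfrc reads of replicate 2 held no splice junction. Models spanning the whole coding region held 9 of 14 reads (64.3%) and 19 of 73 reads (26.0%). The 3′ UTR elements shown above lay within the models of all 14 reads and all 73 reads. Reads on the opposite strand at Tfrc numbered 4 in replicate 1 and 72 in replicate 2 and are not part of its level.

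Ferritin turnover, iron sensing and export. Ncoa4 (Ncoa4-202, chr14:32159865-32179855, plus strand, 10 exons, 4065 nt) encodes the receptor that carries ferritin to lysosomes for breakdown. Ncoa4-202 took 18 of 27 reads (66.7%) in replicate 1 and 36 of 45 reads (80.0%) in replicate 2. A model of 10 exons joining annotated splice sites anew (class NIC), with its start inside Ncoa4-202, took 4 reads in replicate 1 and 2 reads in replicate 2. Models spanning the coding region held 25 of 27 reads (92.6%) and 42 of 45 reads (93.3%).

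Ncoa4 has 3 RefSeq starts in the table of promoters used, and reads fell at the most upstream one. Within 200 nt of that start began the models of 23 reads in replicate 1 and 39 reads in replicate 2, against 0 reads in either library at each of the other two. The 60 bases before the first and the last start are printed from RefSeq (GRCm38.p6), with the letters TATAA in capitals. On the gene's strand TATAA stands in 5.57% of such windows (1831 of 32851), and among 9 windows of Fth1, Ftl1, Tfrc, Ireb2 and Ncoa4 only that of the last Ncoa4 start holds it.
Ncoa4, first start, chr14:32159827-32159886, plus strand: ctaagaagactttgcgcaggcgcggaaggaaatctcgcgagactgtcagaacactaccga
Ncoa4, last start, chr14:32165729-32165788, plus strand: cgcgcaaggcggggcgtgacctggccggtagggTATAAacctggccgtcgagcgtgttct

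Ireb2 (Ireb2-201, chr9:54863789-54912530, plus strand, 22 exons, 5770 nt) encodes an iron regulatory protein that binds the elements above and is degraded when iron is plentiful. None of its 3 reads in replicate 1 and 4 reads in replicate 2 spanned the coding region. The longest model, of 15 exons, came from 1 read in replicate 1. At 3 and 4 reads, no share of its forms was resolved.

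Slc40a1 (Slc40a1-201, chr1:45908068-45925582, minus strand, 8 exons, 3370 nt) encodes ferroportin, the known cellular iron exporter, which is abundant in macrophages that recycle red cells. Slc40a1-201 took 7 of 11 reads in replicate 1 and 12 of 20 reads in replicate 2. These were also the reads whose models held the 5′ element. A single-exon model of 271 nt at the 3′ end (class Genomic) took 2 reads and 7 reads. The 10 macrophage markers summed to 45.2 CPM in replicate 1 and 61.8 CPM in replicate 2, from 0 to 22 reads per gene and with Vsig4 at 0 in both. Their part in the Slc40a1 level was not tested.

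**Figure D4:**
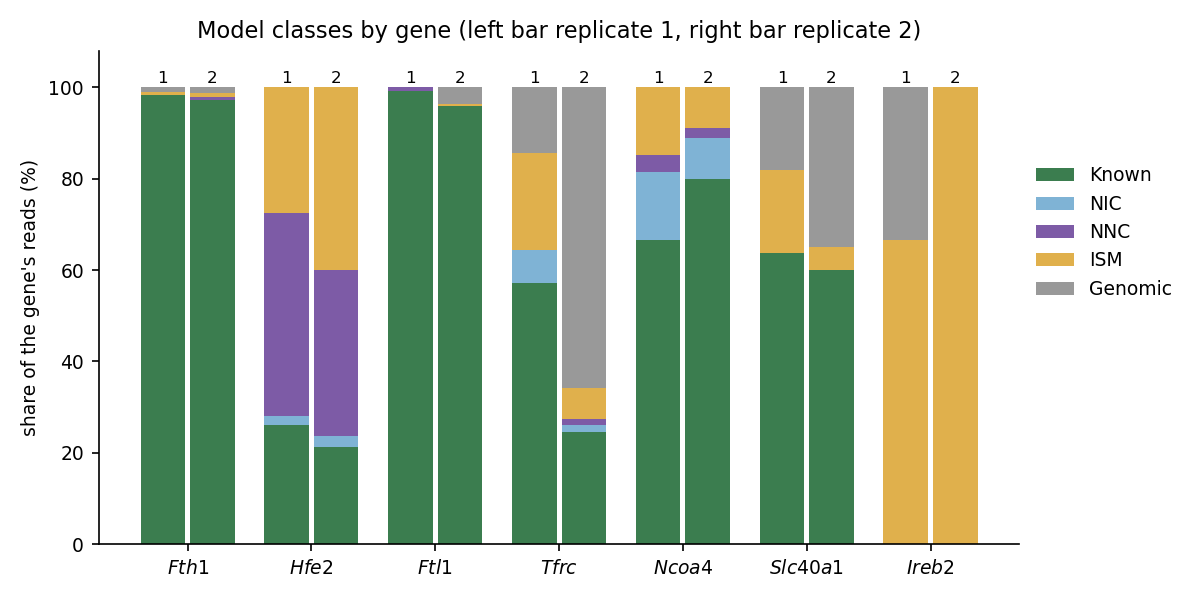
Share of each gene's reads by deposited model class, in percent, with replicate 1 left and replicate 2 right. Known matches an annotated transcript, NIC joins listed splice sites in a new combination, and NNC uses an unannotated site. ISM holds part of a listed chain, and Genomic overlaps the gene without its splicing. In replicate 2 some NIC and ISM models of Hfe2 also use unannotated sites. Known models hold most reads of Fth1, Ftl1, Ncoa4 and Slc40a1, NNC models lead Hfe2 in replicate 1, Genomic models lead Tfrc in replicate 2, and Ireb2 has no Known read.

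Differences between the libraries. Fisher's exact test, two-sided, was run on each gene's reads over 8096 genes with at least 10 reads summed, with Benjamini-Hochberg adjustment. Genes were called where the adjusted p lay under 0.05 and the difference reached 2-fold, and folds are replicate 1 over replicate 2. The test compares these 2 libraries and no conditions. It called 11.3% of all genes tested, 5.47% higher (443 genes) and 5.78% lower (468 genes) in replicate 1. Of the 7 iron genes 6 could be tested, since Ireb2 had too few reads, and 1 was called, a share that 6 genes are too few to set against the background.

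Tfrc was the gene called, 2.59-fold lower in replicate 1 (95% interval 1.45 to 4.98, adjusted p = 0.00458 by Fisher's exact test). The call was lost without ISM and Genomic models, at a log2 fold of -0.30 (adjusted p = 0.857), and with Known models alone, at -0.14 (adjusted p = 1.0). Over the 7 alternatives tried, the adjusted p ran between 0.00224 and 1.0.

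Fth1 was 1.52-fold lower in replicate 1 (95% interval 1.44 to 1.60, adjusted p = 3.41e-55 by Fisher's exact test), below the 2-fold minimum. At any fold, 20.3% of the genes tested passed the adjusted p. Hfe2 did not pass, with a fold of 1.14 (95% interval 1.00 to 1.28, adjusted p = 0.148). Its adjusted p ran between 0.00585 and 0.349 over 7 alternatives and was under 0.05 in 3 of them, which were Atp2a1 left out of the library size (0.00585), no ISM and Genomic models (0.0247) and Known models alone (0.0314). The difference stayed under 2-fold in each. Ftl1 did not pass either, with a fold of 0.808 (0.653 to 0.994, adjusted p = 0.141). Over 7 alternatives its adjusted p ran between 0.0352, without ISM and Genomic models, and 0.487, again under 2-fold. The intervals of Ncoa4, 1.21-fold (0.720 to 1.99), and of Slc40a1, 1.11-fold (0.478 to 2.42), include 1, and for Slc40a1 a 2-fold difference in either direction lies inside.

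**Figure D5:**
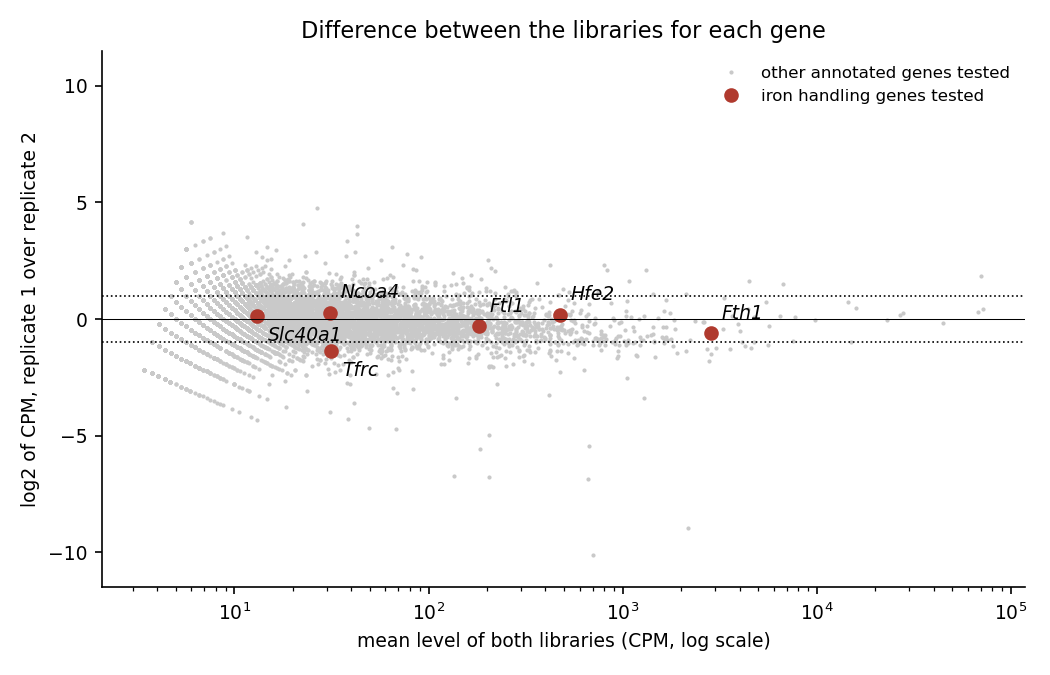
Log2 of CPM in replicate 1 over replicate 2 against the mean level in CPM on a log scale, for every annotated gene tested with reads in both libraries; dotted lines mark 2-fold. Of the iron genes, drawn large, only Tfrc lies beyond a dotted line.

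The share of each model within its gene was tested the same way over 8216 models, and a call needed a difference of at least 10 percentage points. Of all models 14.1% were called, 6.71% with a higher and 7.41% with a lower share in replicate 1, and none of the 15 tested from Hfe2, Fth1, Ftl1 and Ncoa4. Without ISM and Genomic models, 57 of 4276 models were called. Tfrc, Slc40a1 and Ireb2 had too few reads for this test. The Hfe2 model beginning in exon 3 took a share of 15.3% in replicate 1 and 25.1% in replicate 2, a difference of -9.80 percentage points (adjusted p = 0.00110, Fisher's exact test), just under the 10-point minimum. The model with exon 2 longer by 18 nt took 8.40 percentage points more of all Hfe2 reads in replicate 1, and 2.56 percentage points more when ISM and Genomic models were left out.

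Partners of hemojuvelin. A list of 26 genes held the hemojuvelin receptor neogenin, bone morphogenetic proteins and their receptors, SMAD transducers, hepcidin and its upstream genes. Its summed level was 216 CPM in replicate 1 and 204 CPM in replicate 2, in both below Hfe2 alone. By mean level the common SMAD transducer gene Smad4 was highest, with 50.2 CPM in replicate 1 and 27.5 CPM in replicate 2. Bmpr1a, a type I receptor gene, had 25.1 CPM and 31.2 CPM. The Hfe2 relative Rgmb had 27.6 CPM and 16.9 CPM, and the type II receptor gene Bmpr2 had 7.53 CPM and 28.7 CPM, so their order changed between the libraries. Hamp and Hamp2, which encode hepcidins, and Tfr2, Tmprss6 and Smad9 had 0 reads in both libraries, which allows up to 3.76 CPM and 1.87 CPM (3 reads).

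Of the 14 genes tested in that list, 1 was called higher and 1 lower in replicate 1, beside 5.47% and 5.78% of all genes tested. The activin receptor gene Acvr2a had 10 reads in replicate 1 and 4 reads in replicate 2, a fold of 5.03 (adjusted p = 0.0234, Fisher's exact test). Bmpr2 had 6 reads and 46 reads, a fold of 0.262 (adjusted p = 0.00465, Fisher's exact test). With Known models alone, or without ISM and Genomic models, neither gene reached the 10 reads summed that the test needs. Neither call could therefore be checked in these settings. Acvr2a also dropped out where at least 20 reads summed were required. The median log2 fold of the list was 0.01, and that of all genes tested was -0.06.

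Uptake, export and regulation. Of 10 uptake and reduction genes, the endosomal sorting gene Snx3 was highest in both libraries, with 139 CPM in replicate 1 and 212 CPM in replicate 2. Trf, which encodes transferrin, had 48.9 CPM and 9.36 CPM. The iron transporter gene Slc11a2 had 32.6 CPM and 21.8 CPM, and the ferrireductase gene Steap4 had 20.1 CPM and 10.6 CPM. Trf thus lay above both in replicate 1 and below both in replicate 2. Of 6 tested, 1 was called higher and none lower, beside 5.47% and 5.78% of all genes tested. The gene called was Trf, with 39 reads in replicate 1 and 15 reads in replicate 2, a fold of 5.23 (adjusted p = 1.12e-07, Fisher's exact test). The summed red cell markers were also higher in replicate 1, as given above, and their part in the Trf level was not tested. The median log2 fold was 0.50 over the 6 genes.

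The ferroxidases that work with ferroportin were close to the limit of the libraries. Cp had 4 reads in replicate 1 and 5 reads in replicate 2, Heph had 2 reads and 0 reads, and Hephl1 had none. Of 9 genes for iron regulatory proteins and ferritin handling, 7 were tested and none was called, beside 11.3% of all genes tested, with a median log2 fold of 0.04. Skp1a, of the ubiquitin ligase family that degrades iron regulatory protein 2, was highest in both libraries, with 107.9 CPM in replicate 1 and 137 CPM in replicate 2. Among iron chaperone genes, Pcbp1, with 97.9 CPM and 79.3 CPM, and Pcbp2, with 62.7 CPM and 104 CPM, changed places between the libraries. The ligase scaffold gene Cul1 had 53.9 CPM and 42.4 CPM. Aco1, which encodes the other iron regulatory protein, had 17 reads in replicate 1 and 15 reads in replicate 2, above Ireb2 in both libraries.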

How the data were processed

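The authors deposited unnormalized counts for every transcript model of a library, with TALON classes, and an annotation of these models; per the file headers and README both use mm10 and GENCODE M21. The sources used here do not give the aligner, read correction or filters. Exon coordinates were read from the deposited annotations.

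Gene counts are sums over a gene's models, scaled to CPM over reads in annotated mouse genes. Genes with at least 10 reads summed, and model shares in genes with 20 or more reads per library, were compared by Fisher's exact test, two-sided, with Benjamini-Hochberg adjustment over the whole table; both tests were tested on simulated data. Models were matched by annotated transcript or intron chain. Intervals are exact and cover counting error only. TMM factors (edgeR 4.0.16) and DESeq2 1.42.0 size factors (R 4.3.3) served as other scalings. Software was scipy 1.17.1, pandas 2.3.3 and numpy 2.4.6 under Python 3.11.15. Named were all 7 genes, their models with at least 5% of reads, and in each iron list the 4 highest and all called genes; models with fewer reads were named after their values were seen. Some genes that this rule names are not reported here. The members and lists were chosen with earlier results of these data known. The alternatives tried are given below.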

Additional observations from a re-analysis of the deposited data

Results flagged for a closer look

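Reads on the strand opposite to 2 of the genes form loci of their own in the tables, which the gene levels do not use, and exceeded 3 reads there. Antisense reads at Tfrc numbered 4 in replicate 1 and 72 in replicate 2. Antisense reads at Ireb2 numbered 10 in replicate 2, more than the 4 sense reads of the gene.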

How the results depend on the processing

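The gene test called 911 genes; across 7 other settings the count lay between 795 and 1022. The split into higher and lower in replicate 1 was 443 and 468, against 567 and 348 with Atp2a1 left out of the library size and 587 and 257 with Known models only. Leaving out Atp2a1 moved the median log2 fold of all genes to 0.07, against -0.06, and TMM moved it to -0.11. Model shares differed in 1160 models, and in 788 with at least 50 reads per gene and 57 without ISM and Genomic models, which leaves 4276 models to test. With Known models only, the annotated exon 2 of Hfe2 held 100% of reads and the 5 other forms 0%, since their models are not Known. With Known models only, mean levels were 4166 CPM for Fth1, 171 CPM for Hfe2, 263 CPM for Ftl1, 15.85 CPM for Tfrc, 12.1 CPM for Slc40a1 and 0 CPM for Ireb2. Without ISM and Genomic models they were 394 CPM for Hfe2, 222 CPM for Ftl1, 14.9 CPM for Tfrc, 10.1 CPM for Slc40a1 and 0 CPM for Ireb2. Near copies brought Ftl1 to 474 CPM, and leaving out Atp2a1 brought Slc40a1 to 14.2 CPM. Leaving out either library gives the values of the other, printed above. Ireb2 had too few reads for either test, and Tfrc and Slc40a1 too few for the test of model shares. No paired analysis was possible because both libraries belong to 1 group. A count model with residual spread could not be fitted for the same reason.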

Other observations

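Iron in muscle is also used for iron-sulphur clusters and haem. Of 21 genes for mitochondrial iron and iron-sulphur clusters, 19 were tested. Of these, 1 was called higher and 1 lower in replicate 1, beside 5.47% and 5.78% of all genes tested. The median log2 fold of the 19 genes was -0.67, against -0.06 over all genes tested. The outer membrane cluster protein gene Cisd1 had 289 CPM in replicate 1 and 504 CPM in replicate 2. Bola3 had 262 CPM and 494 CPM, the chaperone gene Hspa9 had 210 CPM and 383 CPM, and the glutaredoxin gene Glrx5 had 173 CPM and 337 CPM. All 4 were lower in replicate 1 by less than 2-fold. Iscu, which encodes the scaffold on which clusters are built, had 110 reads in replicate 1 and 515 reads in replicate 2, a fold of 0.429 (adjusted p = 1.00e-16, Fisher's exact test), and was called lower in replicate 1. The slow fibre markers, which were near 0 in replicate 1, stand beside these values, and their part in them was not tested.

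Of 16 haem genes 13 were tested and none was called, beside 11.3% of all genes tested, with a median log2 fold of -0.25. The first enzyme gene of haem synthesis, Alas1, had 169 CPM in replicate 1 and 174 CPM in replicate 2. Urod had 105 CPM and 170 CPM, Fech, whose product inserts the iron, had 130 CPM and 103 CPM, and Hmox2, which encodes a haem-degrading enzyme, had 26.3 CPM and 47.4 CPM.

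Genes near to Hfe2 in log2(CPM + 1) over the 2 libraries included Adipor1 (526 CPM in replicate 1 and 439 CPM in replicate 2), Pdk2 (479 CPM and 414 CPM), Eif5a (552 CPM and 481 CPM) and Capza2 (565 CPM and 502 CPM). Their Euclidean distances to Hfe2 ran between 0.0566 and 0.225 log2 units. With 2 libraries, this likeness describes a level and no pattern.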
